A study of Zea mays with 21 samples.

Results

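White sections of young zb10 maize leaves were compared with leaves of wild-type (WT) plants of the same stage, as RNA counts per gene over the whole transcriptome. The comparison holds 6 of the series' 21 libraries, chosen by their labels: 3 of the white section of zb10 leaves at V4, described in the series design as the 4th-leaf stage, and 3 of WT leaf at V4. zb10 is a zebra-leaf mutant that, by the series title, has lost the function of ZmPTOX, the maize plastid terminal oxidase. The labels name neither the genetic background of WT nor the part of the WT leaf sampled, so genotype and leaf section cannot be told apart within this comparison. The green section of zb10 leaves at V4 (3 libraries) serves below as a reference. So do WT and zb10 leaf at V9, the 9th-leaf stage (3 libraries each, with no section named). The other reference libraries are of 16-day endosperm (counted from pollination) of WT and zb10 (3 each). The series design calls replicates biological. Columns of the deposited table name the mutant zb9 and the younger leaf 3L.

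Plastid terminal oxidase passes electrons from plastoquinol to oxygen in plastids. Plastoquinone is the electron acceptor of the carotenoid desaturases, and carotenoids protect chlorophyll from light damage while chloroplasts form. Zebra mutants carry pale bands across otherwise green leaves, and in plants the state of the plastid is known to feed back on nuclear genes.

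The deposited table gives IDs without gene names, and 0 of its 50142 IDs matched the reference gene table, so no gene is named here and no ID can be tied to ZmPTOX as a check of the labels. Zm00001d001909 was added because it was low in every zb10 leaf group, after its values had been seen. It stood at 64.5, 66.7 and 56.8 CPM (counts of a gene relative to the library's total, on the usual CPM scale and corrected for library composition) in the WT V4 libraries and at 4.67, 4.66 and 4.21 CPM in the white section (log2 fold change -3.75, SE 0.1, adjusted p = 5.1e-08, edgeR). As it was picked on these libraries, this p-value is no independent test. In endosperm it was at 16.6 ± 1.8 CPM in WT and 7.94 ± 2.09 CPM in zb10 (SD, n = 3).

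The 6 libraries held 28237880 to 37292787 counts. No pair of replicates agreed within sampling noise. White replicate 3 stood apart from the other white libraries: 1456 genes made up 50% of its counts, against 970 and 969 in white replicates 1 and 2 and 743 to 853 in WT. The 50 genes with most reads in V4 leaf took 10.7% of what it held, where white replicates 1 and 2 had 16.7% and 17.2% and WT libraries 19.7% to 20.9%. Along the first principal component of the 9 V4 libraries, which held 52.4% of the variance, the white libraries lay at 60.8 to 75.4, the green ones at -28.8 to -16.5 and WT at -48 to -43.7. White replicate 3 was the farthest from WT on it. The median SD of a gene over the replicates was 0.207 on the log2 scale in the white section and 0.152 in WT. The leaf identity of the white libraries was checked by reads, as marker genes could not be named: genes whose V9 leaf level exceeded that in endosperm by 16-fold or more took 34.3 ± 4.68% of white counts (SD, n = 3), and genes with the reverse pattern 0.495 ± 0.073%.

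Transcript levels in the white section differed from WT in 31.5% of the genes that could be tested. Of 26871 genes, 4463 were higher (16.6%) and 3995 lower (14.9%) at an adjusted p under 0.05 in edgeR's quasi-likelihood test. Most changes were small: 1738 genes rose and 1504 fell by more than 2-fold (6.47% and 5.6% of genes tested). Larger changes leaned upward, with 376 genes raised and 173 lowered more than 8-fold and 169 and 54 more than 32-fold. Of the latter, 97 had 0 counts in every WT library and 35 had 0 in every white library, and their fitted folds have no firm size. Scaling by library size alone moved the median of all genes to 0.14 (log2) and the share of higher genes among those called from 52.8% to 69%. Without white replicate 3, 3929 genes were higher and 3678 lower.

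**Figure D1:**
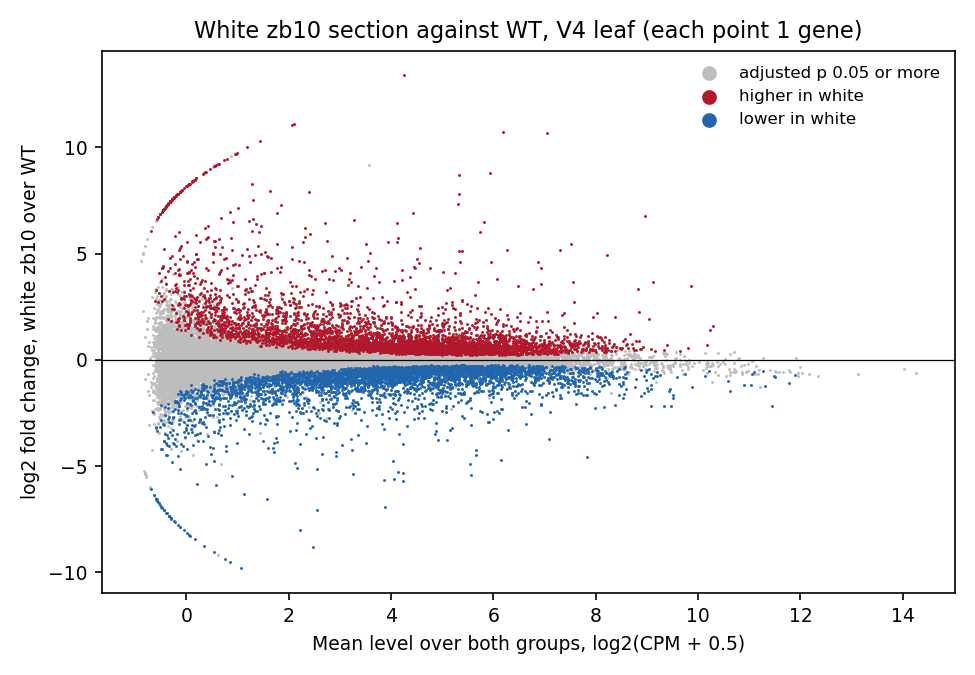
Log2 fold change of the white zb10 section over WT at V4 (vertical) against the mean level of both groups in log2(CPM + 0.5) (horizontal), 1 point per gene tested, red for the 4463 genes called higher and blue for the 3995 called lower. The curved rows at the left edges are genes with 0 counts in all libraries of 1 group, and calls spread over the whole range of levels.

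The 4 IDs named first are those with the largest rise and fall in mean CPM, an amount of reads and not of molecules, since the values are not scaled by gene length. Zm00001d007827 was at 164, 146 and 169 CPM in WT and at 1662, 1959 and 1514 CPM in the white section. Each white library lay far above each WT library (11.1-fold, log2 fold change 3.47, SE 0.17, adjusted p = 1.1e-06). The green section of the same mutant stood between them at 293 ± 40.1 CPM (SD, n = 3), and the gene was lower in V9 leaf, at 61 ± 30 CPM in WT and 63.5 ± 57.3 CPM in zb10. In endosperm it was near 0, at no more than 0.216 CPM in any library. White exceeded green by 2.58 on the log2 scale (SE 0.16, adjusted p = 6.3e-06).

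Zm00001d031332 was at 741, 626 and 573 CPM in WT and at 1347, 1738 and 2537 CPM in the white section. The groups did not overlap, although the white libraries were widely spread and replicate 3 was the highest (log2 fold change 1.59, SE 0.24, adjusted p = 0.00094). The white level of 1870 ± 606 CPM was of the size seen in V9 leaf of either genotype, 1910 ± 233 CPM in WT and 1840 ± 371 CPM in zb10. The green section was at 881 ± 170 CPM, below white by 1.13 on the log2 scale (adjusted p = 0.0076).

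Zm00001d053675 had the largest fall, from 4217, 5780 and 3745 CPM in WT to 976, 1313 and 677 CPM in the white section. All white libraries lay below all WT libraries (log2 fold change -2.16, SE 0.26, adjusted p = 2e-04). The green section was at 2510 ± 131 CPM, and white was lower than green by -1.31 (log2, adjusted p = 0.0043). At V9 it stood at 6570 ± 1490 CPM in the mutant and 5480 ± 603 CPM in WT, a log2 fold change of 0.28 (SE 0.28, adjusted p = 0.87). In endosperm the gene was at 3.87 ± 3.2 CPM in WT.

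Zm00001d031168 fell from 4139, 4878 and 5517 CPM in WT to 2494, 2058 and 2005 CPM in the white section (log2 fold change -1.10, SE 0.19, adjusted p = 0.0018). Again the groups did not overlap. Unlike the fall before it, this transcript was also abundant in endosperm, at 3560 ± 1070 CPM in WT and 3220 ± 381 CPM in zb10. In V9 leaf it stood at 1680 ± 516 CPM in WT, below the WT V4 level.

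**Figure D2:**
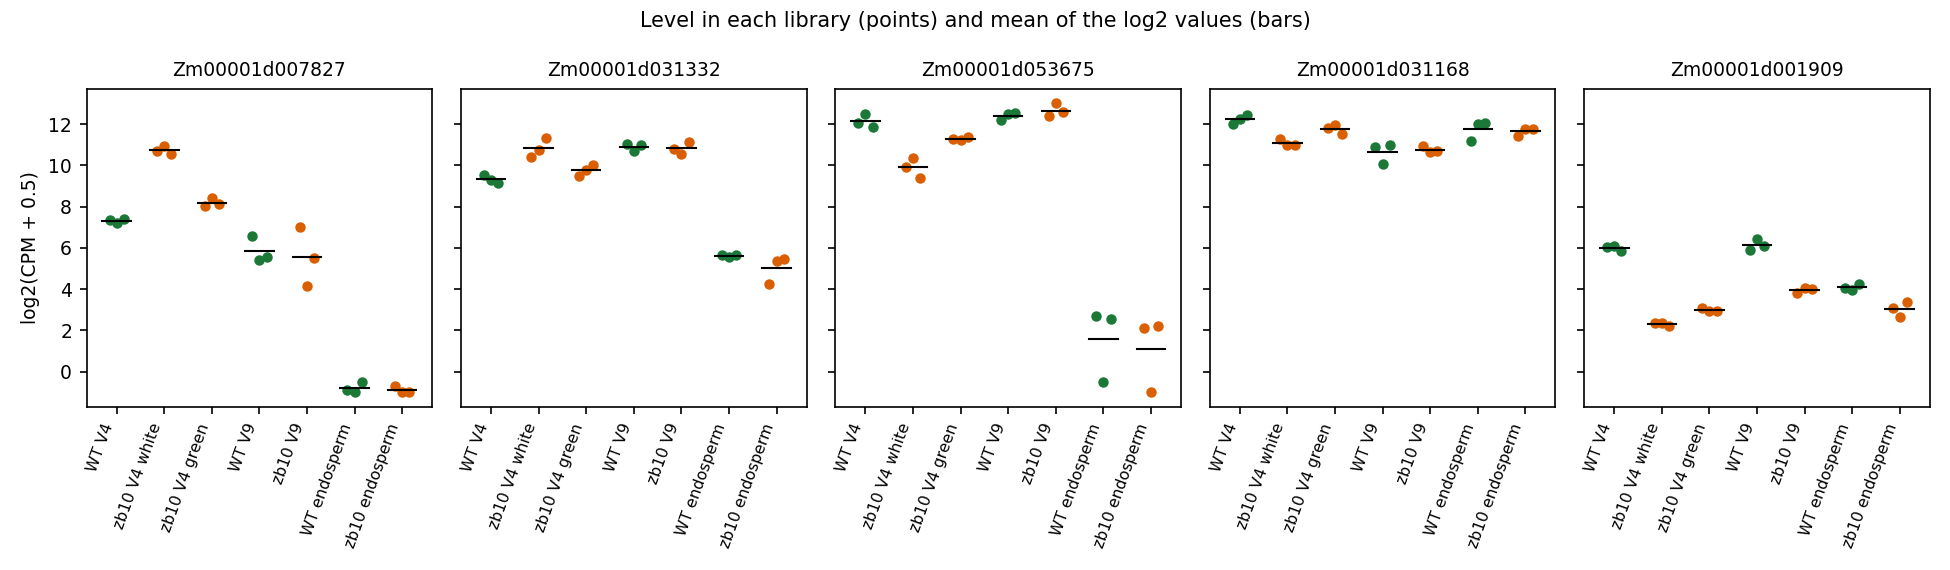
Level in log2(CPM + 0.5) of the 4 IDs of largest rise and fall and of Zm00001d001909 in all 21 libraries (green points WT, orange points zb10, black bars the mean of the log2 values). The white V4 libraries lie apart from WT V4 in each panel, and Zm00001d001909 is low in both V4 sections of zb10 and at V9.

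Among called genes, the summed fall in CPM rested on fewer genes than the summed rise. The falls amounted to 115039 CPM and the rises to 82972 CPM, but this order turned with library size alone, where the same genes gave falls of 96634 and rises of 111774 CPM. The 153 largest falls made up 50% of the first sum, and 341 rises made up 50% of the second. The 10 largest falls held 16.8% of the loss, and the 10 largest rises held 10.5% of the gain. With library size alone 131 falls and 378 rises made up 50% of their sums. Genes called higher took 12.3 ± 0.318% of WT counts and 23.5 ± 2.31% of white counts (SD, n = 3), and those called lower 24.8 ± 0.214% and 15.2 ± 0.644%; both lists were chosen on these libraries, so these shares describe them and test nothing.

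Of the gene groups compared, genes more abundant in V4 than in V9 leaf were lower most often. They were defined without the compared libraries, by a level at least 4-fold higher in the green zb10 section at V4 than in zb10 V9 leaf and at 10 CPM or more. Of 648 tested, 270 were lower (41.7%, against 14.9% of all genes) and 51 higher (7.87%, against 16.6%), with a median log2 fold change of -0.43 where the median of all genes was 0. A fall of more than 2-fold was seen in 144 (22.2%, against 5.6%). Their share of counts was 10%, 9.1% and 9.97% in WT and 7.77%, 7.68% and 6.53% in the white section, so that the groups did not overlap, and green libraries held 8.33% to 9.92%. The exact two-sided permutation p for white against WT was 0.1, the smallest that 3 against 3 libraries allow. In bulk tissue, fewer cells of a type and less RNA per cell cannot be told apart. The counts were graded by the ratio: among genes over 8-fold higher in V4 green than in V9, 156 of 325 were lower (48%) and 16 higher (4.92%). Among genes 2- to 4-fold higher, 289 of 947 were lower (30.5%). Among those up to 2-fold higher, with the same limit of 10 CPM, 1019 of 5044 were lower (20.2%) and 1130 higher (22.4%). All genes tested include many with few reads: under 1 CPM in V9 leaf, 8.34% were lower and 10.6% higher. With WT V9 leaf in place of zb10 V9 leaf in the definition, 256 of 614 genes were lower and 56 higher. With library size alone 226 of 648 were lower and 67 higher, where of all 26871 genes 2493 were lower and 5559 higher. Without white replicate 3 the numbers were 244 and 48 of 648, and 3678 and 3929 of all 27493 genes. With all 21 libraries in the fit 162 of 648 were lower and 18 higher, beside 3061 and 3446 of all 32302 genes.

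Genes with the opposite stage pattern, at least 4-fold more abundant in zb10 V9 leaf than in the green V4 section, moved both ways. Of 481 tested, 107 were higher (22.2%) and 116 lower (24.1%), each above the share in all genes. The gap to genes of like level was smaller. Of genes at 10 to 100 CPM in V9 leaf 20.8% were higher and 19.5% lower, and at 100 CPM or more 19.7% and 24%. Changes over 2-fold numbered 72 higher (15%) and 80 lower (16.6%). Their median was -0.14, but -0.01 with library size alone and -0.25 without white replicate 1. Their share of counts was 0.819 ± 0.0713% in WT and 1.01 ± 0.131% in white libraries (SD, n = 3, exact permutation p = 0.1), although the median gene was slightly lower.

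**Figure D3:**
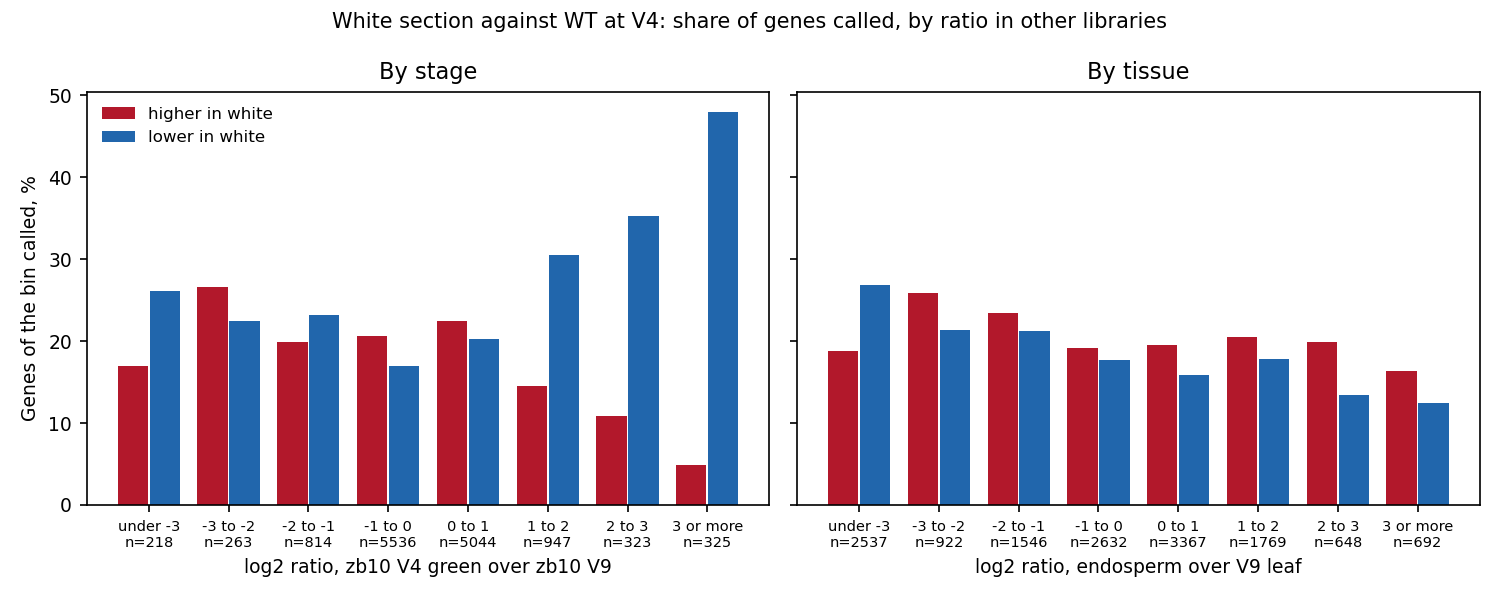
Percent of genes called higher (red) or lower (blue) in the white section than in WT, by their log2 ratio between zb10 V4 green and zb10 V9 leaf (left) and between endosperm and V9 leaf (right), for genes at 10 CPM or more on either side; n is the number of genes tested in a bin. On the left the blue bars climb to 48% and the red bars drop to 4.92% at the V4 end, and on the right the bars change less.

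Sorting genes by tissue separated the changes less. Among 1791 leaf-enriched genes (at least 16-fold over endosperm in V9 leaf and at 10 CPM or more there), 483 were lower (27%) and 301 higher (16.8%). All genes had 14.9% lower and 16.6% higher, but genes at 10 to 100 CPM in V9 leaf had 19.5% lower and 20.8% higher. Those at 100 CPM or more had 24% lower and 19.7% higher. Beside genes of like level the excess of falls was smaller, and rises were fewer. The median of leaf-enriched genes was -0.21. Without white replicate 3 the median was -0.11, with 456 of 1796 lower and 339 higher, beside 3678 and 3929 of all 27493 genes. Scaled by library size alone 385 of 1791 were lower and 390 higher, where of all 26871 genes 2493 were lower and 5559 higher. The median was then -0.08 beside 0.14 for all genes. Of these genes, 62 also belonged to the V4-enriched group. Leaving them out left 463 of 1729 lower (26.8%), and the V4-enriched genes that were not leaf-enriched had 250 of 586 lower (42.7%). The leaf-enriched share of counts was 38.1%, 40% and 39.7% in WT and 37.2%, 36.7% and 28.9% in the white section. White replicate 3 had by far the lowest of these shares.

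Endosperm-enriched genes were called about as often as other genes, with 66 of 374 higher (17.6%) and 41 lower (11%). More than 2-fold, 52 rose (13.9%, against 6.47% of all genes) and 25 fell (6.68%, against 5.6%). Only 374 of the 816 endosperm-enriched genes passed the low-count filter. One silent in WT passed it only where V4 zb10 libraries were high, so the tested set is selected for rises. Without the filter 62 of 609 were called higher and 44 lower, beside 4157 and 3873 of all 36561 genes. The median of the tested members was 0.07 and ranged from -0.035 without white replicate 3 to 0.19 without white replicate 2. Together the endosperm-enriched genes, tested or not, took 0.325%, 0.328% and 0.318% of WT counts and 0.483%, 0.429% and 0.574% of white counts. White replicate 3 was the highest here. Green libraries stood at 0.296% to 0.346%, a range that includes the WT values. The exact permutation p was 0.1, the smallest possible.

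Genes of similar abundance in both tissues (within 4-fold) made up 13410 of the genes tested. Of these 2538 were higher (18.9%, against 16.6% of all genes) and 1999 lower (14.9%, the same as in all genes). Changes over 2-fold numbered 570 higher (4.25%, against 6.47%) and 357 lower (2.66%, against 5.6%). Shared genes had to reach 1 CPM in both tissues. Of genes at 1 to 10 CPM in V9 leaf 15.1% were higher and 12.2% lower, and at 10 to 100 CPM 20.8% and 19.5%. The shared genes took 40.9 ± 1.01% of WT counts and 45.2 ± 4.23% of white counts (SD, n = 3). White replicate 3 had 50.1% and the other white libraries 42.4% and 43.1%. Genes raised more than 2-fold in the white section had a median V9 leaf to endosperm ratio of 0.15 on the log2 scale, those lowered 1.10, and all genes tested 0.22.

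**Figure D4:**
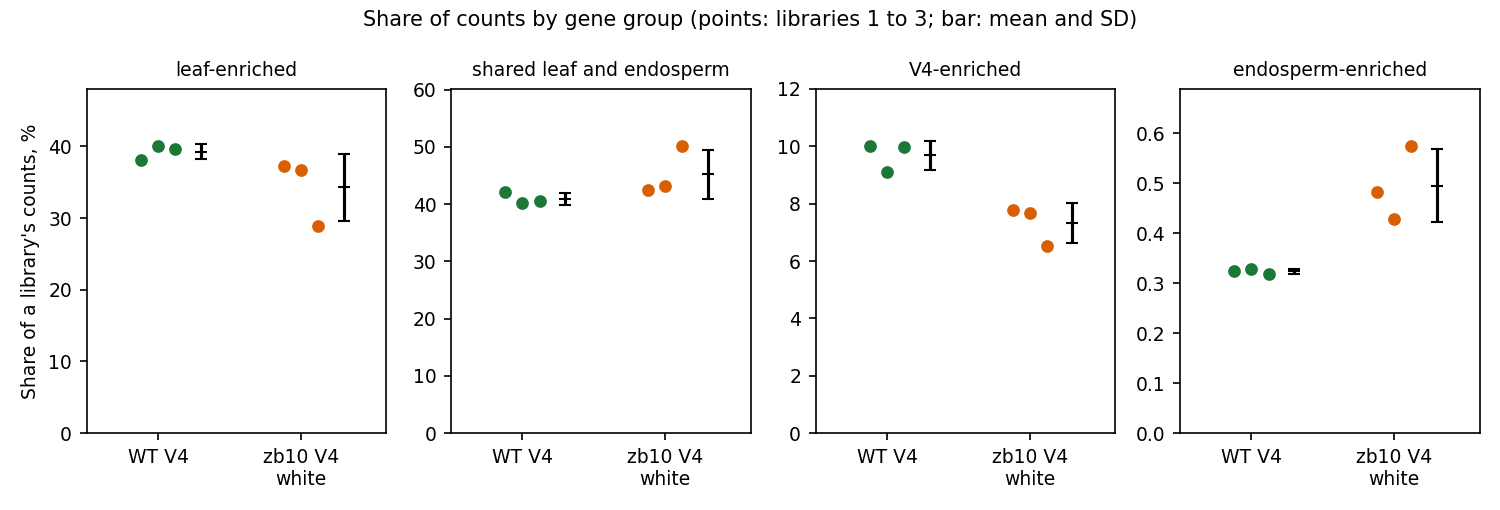
Share of each library's counts taken by 4 gene groups in WT V4 and white zb10 V4 libraries (points, replicates 1 to 3 from left to right), with mean and SD. V4-enriched genes average 9.69% in WT and 7.33% in the white section, endosperm-enriched genes 0.324% and 0.495%, while the leaf-enriched and shared groups differ mainly by white replicate 3.

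Loci without a reference ID, which the table calls newGene, made up 3818 of the genes tested (14.2%) and leaned upward where changes were large. Over 2-fold, 398 rose (10.4%, against 6.47%) and 209 fell (5.47%, against 5.6%). Genes under 1 CPM in V9 leaf, of any ID form, came near this, with 10% raised and 6.84% lowered over 2-fold. The upward lean was not particular to the white section. In green against WT, 22 new loci rose and 1 fell over 2-fold (0.576% and 0.0262%, against 0.249% and 0.208% of all genes). In white against green, 263 were higher and 189 lower over 2-fold (6.89% and 4.95%, against 5.14% and 3.07%). The low-count filter passed 3818 of the 10819 new loci, and one silent in WT passed it only where V4 zb10 libraries were high. Without the filter 504 of 7454 new loci were called higher and 327 lower, beside 4157 and 3873 of all 36561 genes. New loci were 22.9% of all genes raised over 2-fold, 32.4% of those raised over 8-fold and 38.5% of those raised over 32-fold. Among lowered genes the corresponding shares were 13.9%, 13.9% and 14.8%. Of the 169 genes raised over 32-fold, 97 had 0 counts in every WT library and passed the filter only through V4 zb10 libraries. The climb with fold size therefore describes the called genes and tests nothing. The share of counts of the new loci did not separate the groups, at 3.24 ± 0.572% in WT and 3.06 ± 0.494% in the white section (SD, n = 3, exact permutation p = 0.7).

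Some IDs had no read at all on one side. There were 88 at 0 counts in every WT V4 library with at least 10 in each white library, 43 of them new loci (48.9%). The reverse pattern was seen in 26, 6 of them new loci (23.1%). Of all 50142 IDs 21.6% were new loci. The libraries that played no part in this choice split the 88. In the green section 39 were at or under a floor of 3 counts over the group, 10 had at least 10 counts in each library, and 39 lay between. At V9, 41 were at or under that floor in both genotypes (46.6%, against 31.8% of all IDs). A further 4 were on in zb10 (at least 10 counts in each library) and at or under the floor in WT (4.55%, against 0.0279% of all IDs). None showed the reverse, 3 were on in both genotypes and 40 lay between. The choice of the 88 by absence in WT V4 favours zb10 alone over the reverse, so these shares describe them and test nothing. All 4 that were on in zb10 alone were also on in the green section. Another 17 of the 88 had 0 counts in all green and V9 libraries, and 10 of these also had 0 in all endosperm libraries. The 26 IDs absent from the white section included 1 that was on in each green library and 3 at or under the floor there.

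One example of each kind, chosen after its values were seen, shows the difference. Zea_mays_newGene_15148 had 168, 222 and 84 counts in the white section, at least 159-fold above WT when WT is set to the floor. It had 182, 158 and 159 counts in the green section and 59, 73 and 91 in zb10 V9 leaf, but 0 in all WT V9 libraries, so that it followed the genotype in leaf. In endosperm both genotypes had reads, 139, 281 and 134 in WT and 728, 441 and 201 in zb10. Zea_mays_newGene_11403 had 157, 85 and 80 counts in the white section (at least 108-fold above WT) and 0 in every green and V9 library. Zm00001d029085 went the other way, with 70, 161 and 111 counts in WT and 0 in the white section (at least 113-fold lower). It had 21, 27 and 0 counts in the green section and reads in V9 leaf of both genotypes, 36, 3 and 17 in WT and 27, 17 and 5 in zb10.

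The white section was also set against the green section of the same mutant, where 24.4% of the 26871 genes were called. In it 3616 genes were higher (13.5%) and 2936 lower (10.9%), with 1381 higher (5.14%) and 826 lower (3.07%) by more than 2-fold. This contrast tests directly how the effects of white and green differ, since both would be measured from the same WT libraries. With library size alone 73.5% of its calls were higher, against 55.2%. The largest rises in CPM were those of Zm00001d007827 and Zm00001d031332 again. The largest falls were those of Zm00001d023559 and Zm00001d046786, both close to the threshold. Zm00001d023559 was at 7759, 8660 and 5603 CPM in the green section and at 5413, 3435 and 2333 CPM in the white section (log2 fold change -0.94, SE 0.3, adjusted p = 0.042). Its call was lost with the compared groups alone in the fit (adjusted p = 0.098), with all 21 libraries (0.51), and without white replicate 2 (0.1) or 3 (0.061) or green replicate 1 (0.11) or 2 (0.14). With the compared groups alone and the replicate number as a block, which pairs white with green, it was called (-1.02, adjusted p = 0.025). Zm00001d046786 was at 6995, 7313 and 5619 CPM in green and at 4414, 4170 and 1836 CPM in white (log2 fold change -0.90, SE 0.29, adjusted p = 0.048), white replicate 3 being far the lowest. Its call was lost in the same 2 fits (0.11 and 0.43), without white replicate 2 (0.051) and without any 1 green library (0.062 to 0.14), and was made with the block (-1, adjusted p = 0.028). Against WT neither passed the threshold (-0.78, adjusted p = 0.07, and -0.66, adjusted p = 0.11). Green against WT called 0.763% of genes, 112 higher and 93 lower (0.417% and 0.346%).

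At V9, zb10 leaf shares no library with the V4 comparison. Of the 4463 genes higher in the white section 4163 could be tested at V9, where 8 were higher in zb10 (0.192%, against 0.0345% of all genes tested there). Of the 3995 lower genes 3767 could be tested and 3 were lower (0.0796%, against 0.0115%). Across all genes 12 of 26105 were called there (0.046%). Genes raised over 2-fold in the white section had a median log2 fold change of 0.08 at V9, and those lowered over 2-fold one of -0.12. The difference between the V4 white effect and the V9 effect was itself called for 2708 of 28189 genes (9.61%), with 1379 more positive (4.89%) and 1329 more negative (4.71%) in the white section. The 4 IDs of largest rise and fall were among them: the effects differed by 3.36 (SE 0.77, adjusted p = 0.02) for Zm00001d007827, 1.58 (SE 0.35, adjusted p = 0.017) for Zm00001d031332, -2.49 (SE 0.42, adjusted p = 0.005) for Zm00001d053675 and -1.21 (SE 0.35, adjusted p = 0.049) for Zm00001d031168, on the log2 scale. These IDs were chosen for large differences between the same V4 libraries that this test uses, so their calls are no independent support. The call of Zm00001d031168 was lost on leaving out any library other than WT V9 replicate 2 and with library size alone. That of Zm00001d007827 was lost without WT V4 replicate 1 or 2 or zb10 V9 replicate 3, with adjusted p between 0.054 and 0.06. Zm00001d031332 lost its call without WT V4 replicate 2 (adjusted p = 0.052). The number of calls fell to between 1459 and 1784 without any 1 of the WT V4 libraries, WT V9 replicate 3 or zb10 V9 replicate 3. Stage and the section sampled change together in this difference.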

How the data were processed

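RNA of 21 maize libraries in 7 groups of 3 was measured as raw counts per gene, which the authors deposited in 1 table; libraries came from a SMARTer mRNA kit per the labels' protocols. Aligner, counting tool, genome build, strand setting and handling of reads shared between near-identical copies: not given in the sources used here. Every column was matched to a labelled sample; the WT 3L columns were matched to V4 as the remaining WT leaf group.

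Tests used edgeR 4.0.16 under R 4.3.3. Libraries were scaled by TMM, low genes were dropped by filterByExpr (count at least 10, total at least 15), and the quasi-likelihood F-test was called at a Benjamini-Hochberg adjusted p under 0.05, with the 9 V4 libraries in 1 fit, the V9 libraries in another, and the 12 libraries of the V9 difference in 1 more. CPM are TMM-scaled over all libraries, with a pseudocount of 0.5 on the log2 scale. SEs follow from the F-test. DESeq2 1.42.0 was an alternative. Fits were tested on simulated counts. Library totals were 28237880 to 37292787 in the compared groups. Replicates spread more than counting error alone would give, so the totals do not set the precision by themselves. The floor of 3 counts covers counting error only, because reads are not independent molecules.

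IDs were named as the 2 largest rises and 2 largest falls in mean CPM among called genes whose groups do not overlap and whose mean log2(CPM + 0.5) is at least 2, in each comparison; for the V9 difference no limit on overlap was set. Pathway lists and cell type markers were planned by gene name and were not used here, because no ID carries a name. Members, gene groups and the added IDs were chosen with earlier results of these data known. Deviations of same-numbered white and green libraries correlated at 0.17, 0.17 and 0.38, and those of other numbers at 0.1 or less. Each same-numbered value was the highest of its white library and of its green library. With the compared groups alone in the fit, white against green gave 6454 calls with the replicate block and 5014 without it. The correlations are small, and the sample titles state no pairing, so whether the sections were paired is not known. The main test of white against green used no pairing. Each edgeR p-value sets a difference between groups against the spread between these libraries within groups. That spread is estimated over all groups of a fit and drawn toward that of other genes.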

Additional observations from a re-analysis of the deposited data

Results flagged for a closer look

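The mutant effect differed between the white section at V4 and V9 leaf, by a test of the difference itself in edgeR, in 1379 genes toward a higher and 1329 toward a lower value in the white section. On the log2 scale the difference was 3.36 for Zm00001d007827 and 1.58 for Zm00001d031332, whose log2 fold changes at V9 were 0.07 (adjusted p = 0.99) and -0.04 (adjusted p = 0.98). It was -2.49 for Zm00001d053675 and -1.21 for Zm00001d031168. For Zm00001d001909, which was picked because it was low in zb10 at both stages, the difference was -1.57 (adjusted p = 0.0016).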

How the results depend on the processing

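Calls of white against WT ranged from 5711 to 9169 over the alternatives, and from 6013 to 7668 on leaving out 1 library; for white against green the ranges were 4623 to 7403 and 4919 to 5710. Replicate numbers did not pair WT with the white section: deviations of same-numbered libraries correlated at -0.14, -0.21 and -0.09. Each library correlated better with another number. The replicate block gave 5711 calls against WT and 6454 against green. The same fits of the compared groups alone without the block gave 8270 and 5014. For the difference from V9, DESeq2 called 4503 genes, all 15 leaf libraries gave 3228, and leaving out 1 library gave 1459 to 3571. With the block, 33 of 646 V4-enriched genes were higher, and 1599 of 13398 shared genes were higher and 1256 lower. Of 3523 new loci 222 were lower. All 26072 genes of that fit had 3017 higher and 2694 lower. With all 21 libraries in the fit, 18 of 648 V4-enriched genes were higher and 162 lower. Of 1809 leaf-enriched genes 172 were higher and 311 lower, and of 6249 new loci 194 were lower. All 32302 genes of that fit had 3446 higher and 3061 lower. Library size alone left 989 of 13410 shared genes lower, beside 2493 of all 26871 genes. Leaving out 1 library gave 77 to 106 V9-enriched, 26 to 44 endosperm-enriched, 1308 to 1852 shared and 195 to 340 new loci lower. Of all genes, 2712 to 3678 were lower in those fits. The causes were not tested. The 13 values of named IDs were refitted 191 times: 28 lost their call and 0 changed sign.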

Other observations

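Genes with neighbouring ID numbers were more often called in the same direction than genes farther apart. Of 11805 pairs of consecutive numbers that were both tested, both members were called in 1419, and 57% of those moved the same way. Of 10456 pairs 100 numbers apart, both were called in 1125, and 50.5% moved the same way. Whether consecutive numbers are neighbouring genes was not checked, as no genome of the files' build was used here.

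There were 2 runs of at least 3 consecutive IDs that all changed more than 4-fold in the same direction, looked for after the calls were known. In the run from Zm00001d012627 to Zm00001d012630 all 4 IDs were higher in the white section (log2 fold changes of 2.31 to 3.77, the highest adjusted p being 0.0026 in edgeR), and all 4 were also higher than in the green section. Zm00001d012627 stood at 12.7 ± 2.94 CPM in white, 0.953 ± 0.485 CPM in WT V4 and 0.738 ± 0.308 CPM in green (SD, n = 3). Its level in WT endosperm was 17.7 ± 0.945 CPM, and each of the other IDs of the run was also at more than 9 CPM on average in WT endosperm. Reads shared between near-identical copies cannot be told apart in these counts. The other run, Zm00001d027947 to Zm00001d027949, had 3 IDs lower than WT (log2 size 2.81 to 4, the highest adjusted p being 0.029), and none of them was called against the green section.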
